A study of Mus musculus with 6 samples.

Results

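BMP and TGF-beta signalling genes were followed in the terminal ileum of mouse pups with experimental necrotizing enterocolitis (NEC), an inflammatory disease of the newborn bowel. Members were picked by gene symbol: the bone morphogenetic proteins (Bmp), the transforming growth factors beta (Tgfb), their receptors, the Smad proteins, secreted antagonists such as Grem1, Nog, Chrd, Chrdl1 and Fst, the activin subunit gene Inhba, and the Id genes. The pattern found 45 genes among 55487 gene identifiers, and each of the 45 had a row in the table. Of these, 38 had a mean of at least 1 FPKM over the 6 libraries and were tested, and 7 lay below that level. FPKM counts sequenced fragments scaled by the length of the transcript and by the depth of the library, so levels of different genes can be compared per length.

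The series held 3 NEC and 3 control libraries of total RNA from C57BL/6 mice on postnatal day 9. Per the labels, NEC was induced by gavage of a hyperosmolar formula, by hypoxia given 3 times a day for 10 min at 5% O2 on 4 days, and by oral lipopolysaccharide at 4 mg/kg daily on days 6 and 7. The controls carry the same treatment text, so how they were fed and handled is not known here, nor whether a library came from 1 animal. P-values therefore measure the spread between libraries, which may be technical.

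BMPs and TGF-betas are secreted dimers that bring together type I and type II receptor kinases at the cell surface. BMP receptors phosphorylate SMAD1, SMAD5 and SMAD9, TGF-beta and activin receptors phosphorylate SMAD2 and SMAD3, and both kinds join SMAD4 and enter the nucleus, where Id genes are classic BMP targets. In the gut, BMPs from the mesenchyme under the villi restrain stem cell programmes, while antagonists such as gremlin and noggin, made around the crypt base, hold BMP signalling off the stem cells.

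Most members had lower values in NEC, and the ligand gene Bmp8a was the only one called higher. Of the 38 tested members, 17 (44.7%) were called lower and 1 (2.63%) higher, at a Benjamini-Hochberg adjusted p under 0.05 in limma. Over all 15806 tested genes 30.6% were called lower and 7.69% higher. All 3 NEC libraries lay below all 3 controls in 26 of the 38 members (68.4%), and in 47.3% of all tested genes. In bulk tissue, fewer cells of a type and less RNA per cell cannot be told apart. The median log2 change was -0.57 over the members and -0.26 over all tested genes, so each change below is to be read against -0.26. A log2 change here is NEC minus control on log2(FPKM + 1), a scale that understates the change of genes of low level.

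The size of the shift depended on the scale. With TMM scaling, which sets the middle of the changes near 0, the members' median was -0.29. It called 8 members lower (21.1%) and 2 higher (5.26%), against 14.2% and 16.7% of all tested genes. After quantile normalization the median was -0.38, with 12 lower (31.6%) and 2 higher, against 15.1% and 13.9% of all. The sign was negative in 35 of 38 tested members on the deposited scale and in 27 with TMM scaling. Without NEC 2, 10 members were called lower, against 18.5% of all genes. Without control 1, 2 and 3 the members called lower numbered 6, 6 and 7, and the shares of all genes were 6.98%, 6.35% and 13.0%.

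**Figure D1:**
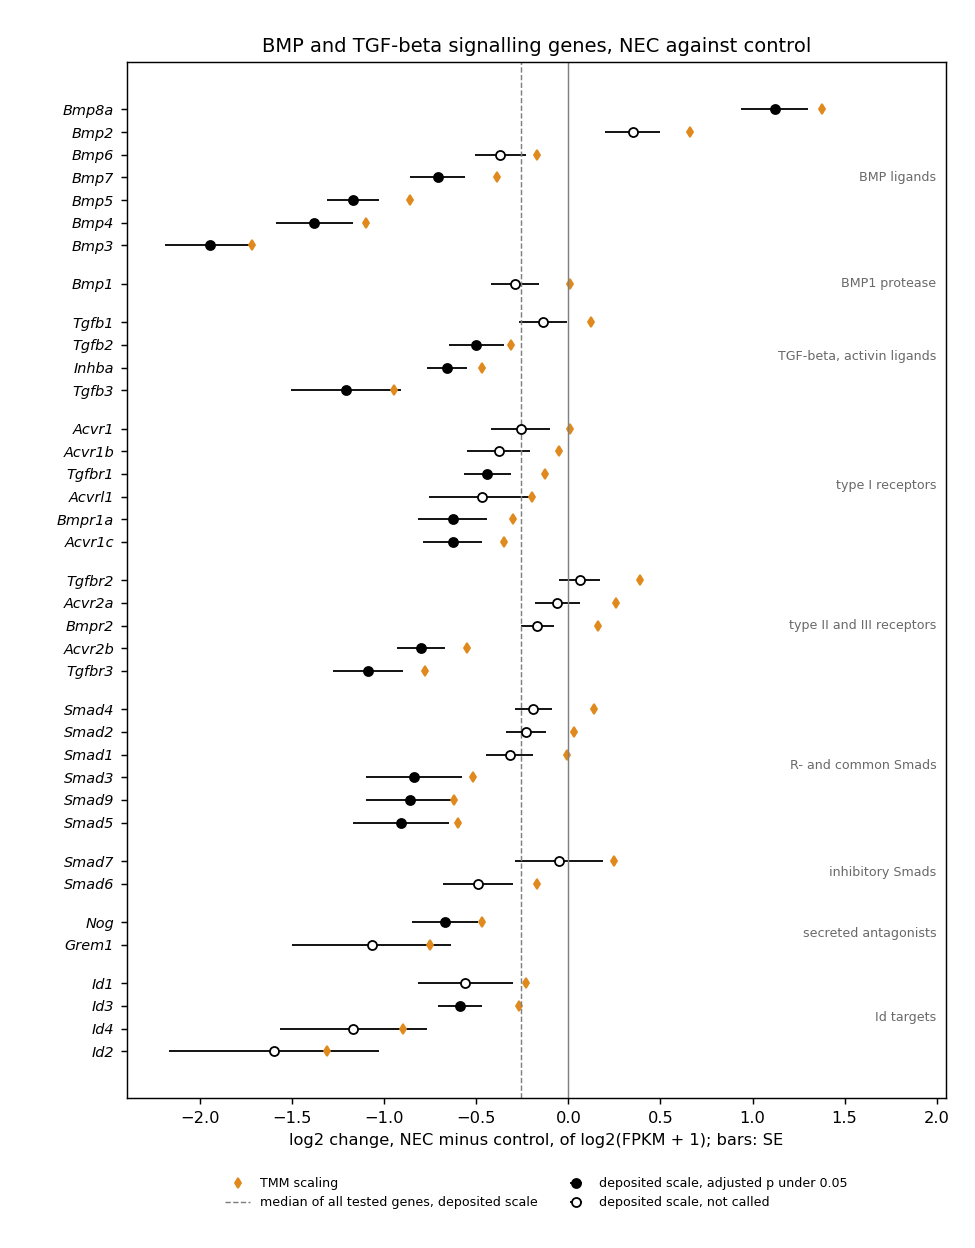
Log2 change of the tested members reported by name, NEC minus control, on log2(FPKM + 1), ordered by role. Circles give the deposited scale with the SE (filled where the adjusted p is under 0.05), diamonds TMM scaling, and the dashed line the median of all tested genes at -0.26; Bmp8a and Bmp2 lie furthest to the right, and Bmp3 furthest to the left.

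Among the BMP ligands, the genes for BMP3, BMP4, BMP5 and BMP7 fell. Bmp4, which encodes the main BMP of the villus mesenchyme (chr14:46383520-46390669, mm10), had 1.94, 3.20 and 4.10 FPKM in NEC 1, 2 and 3, against 9.40, 10.1 and 8.49 FPKM in control 1, 2 and 3. Every NEC library lay well below the lowest control. The log2 change was -1.38 (SE 0.21, adjusted p = 0.00743, limma, Benjamini-Hochberg). Bmp5, a close relative of Bmp7 (chr9:75775364-75900310), had 5.16, 4.19 and 6.07 FPKM in NEC and 11.9, 14.0 and 12.2 FPKM in control (log2 change -1.17, SE 0.14, adjusted p = 0.00462).

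Bmp3, whose product is an atypical BMP that antagonizes other BMPs (chr5:98854415-98884396), changed most of all tested members. It had 0.678, 1.31 and 2.30 FPKM in NEC and 7.83, 8.14 and 8.24 FPKM in control, so that the controls were nearly level while the NEC libraries spread over more than a factor of 3. The mean in NEC was 0.177 of that in control, and the log2 change was -1.95 (SE 0.24, adjusted p = 0.00477). Bmp7, the most abundant ligand gene of the set, had 12.3, 15.2 and 18.6 FPKM in NEC and 23.9, 25.7 and 27.0 FPKM in control. Its log2 change of -0.71 (SE 0.15, adjusted p = 0.0164) was no longer called without control 1, 2 or 3 (adjusted p = 0.0550, 0.0634 and 0.0570). The calls of Bmp3, Bmp4 and Bmp5 held in each leave-one-out fit and with both other normalizations.

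Bmp8a and Bmp2 were the tested ligand genes with higher values in NEC. Bmp8a, known best for its part in germ cell development (chr4:123312645-123343252), had 5.11, 5.91 and 3.96 FPKM in NEC, against 1.96, 1.25 and 2.04 FPKM in control, a ratio of means of 2.85. The groups did not overlap, and the gene was called higher in each leave-one-out fit too (log2 change 1.12, SE 0.18, adjusted p = 0.00830). Its paralog Bmp8b, on the same chromosome, had 0.396, 0.312 and 0.331 FPKM in NEC and 0.0660, 0.288 and 0.111 FPKM in control. Reads of such close paralogs can be split wrongly between them, so the share of each in the rise is uncertain. Bmp2, a ligand made in the villus epithelium and its surroundings, had 8.71, 11.9 and 7.69 FPKM in NEC and 7.27, 6.91 and 6.98 FPKM in control. All NEC libraries were above all controls, but the log2 change of 0.35 (SE 0.15) was not called on the deposited scale (adjusted p = 0.110). Bmp2 was called higher with TMM scaling, by 0.66 (adjusted p = 0.0274), with quantile normalization, by 0.53 (adjusted p = 0.0342), and without NEC 3 (adjusted p = 0.0459). Without NEC 2, its highest library, the change was 0.19 (adjusted p = 0.223).

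The order of the BMP ligands by level was therefore not the same in both groups. Bmp2 stood at 4.50, 3.70 and 1.88 times the level of Bmp4 in NEC 1, 2 and 3, and at 0.774, 0.681 and 0.822 times in control 1, 2 and 3. Bmp8a stood at 2.64, 1.85 and 0.966 times Bmp4 in NEC, against 0.209, 0.123 and 0.240 times in control. These ratios are taken within a library and so do not depend on how libraries are scaled, and NEC 3 lay nearest to the controls in both.

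The remaining BMP genes were low or did not pass. Bmp6, an iron-regulated BMP in liver, had 1.10, 1.05 and 1.19 FPKM in NEC and 1.47, 2.28 and 1.49 FPKM in control, a log2 change of -0.37 that became 0.01 after quantile normalization (adjusted p = 0.0833 on the deposited scale). Bmp10 and Bmp15, genes of heart and oocyte, were at most at 0.0395 and 0.0859 FPKM in any library. Bmp1 fits the naming pattern but encodes a metalloprotease that cuts procollagen and the antagonist chordin. It had 6.07, 8.59 and 7.69 FPKM in NEC and 9.34, 9.47 and 9.03 FPKM in control (log2 change -0.29, adjusted p = 0.111), and its change was 0.01 with TMM scaling.

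Of the TGF-beta and activin ligands, Tgfb3, Tgfb2 and Inhba fell and Tgfb1 was not called. Tgfb3 had 1.05, 2.91 and 3.55 FPKM in NEC, against 6.64, 7.67 and 5.78 FPKM in control (log2 change -1.21, SE 0.30, adjusted p = 0.0230). Inhba, the gene of the activin A subunit, was at 0.868, 0.779 and 0.694 FPKM in NEC and at 1.71, 1.84 and 1.90 FPKM in control, with little spread in either group (log2 change -0.66, SE 0.11, adjusted p = 0.00865). Tgfb1, the immune-regulating isoform, had 2.68, 2.38 and 3.44 FPKM in NEC and 3.22, 3.14 and 3.21 FPKM in control. Its groups overlapped, and the log2 change of -0.14 (adjusted p = 0.411) turned to 0.12 with TMM scaling and 0.19 with quantile normalization.

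The isoforms thus stood in different proportions within each library. Tgfb1 was at 2.56, 0.818 and 0.968 times the level of Tgfb3 in NEC and at 0.485, 0.410 and 0.555 times in control. Tgfb2 had 0.806, 1.10 and 1.52 FPKM in NEC and 2.09, 2.20 and 1.77 FPKM in control (log2 change -0.50, SE 0.15, adjusted p = 0.0405). It was lost with TMM scaling (adjusted p = 0.110), with quantile normalization (0.387), and without NEC 1, NEC 2 or any 1 control (up to 0.129). The Tgfb3 call was lost without any 1 control (up to 0.0806), and the Inhba call with quantile normalization (0.148).

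**Figure D2:**
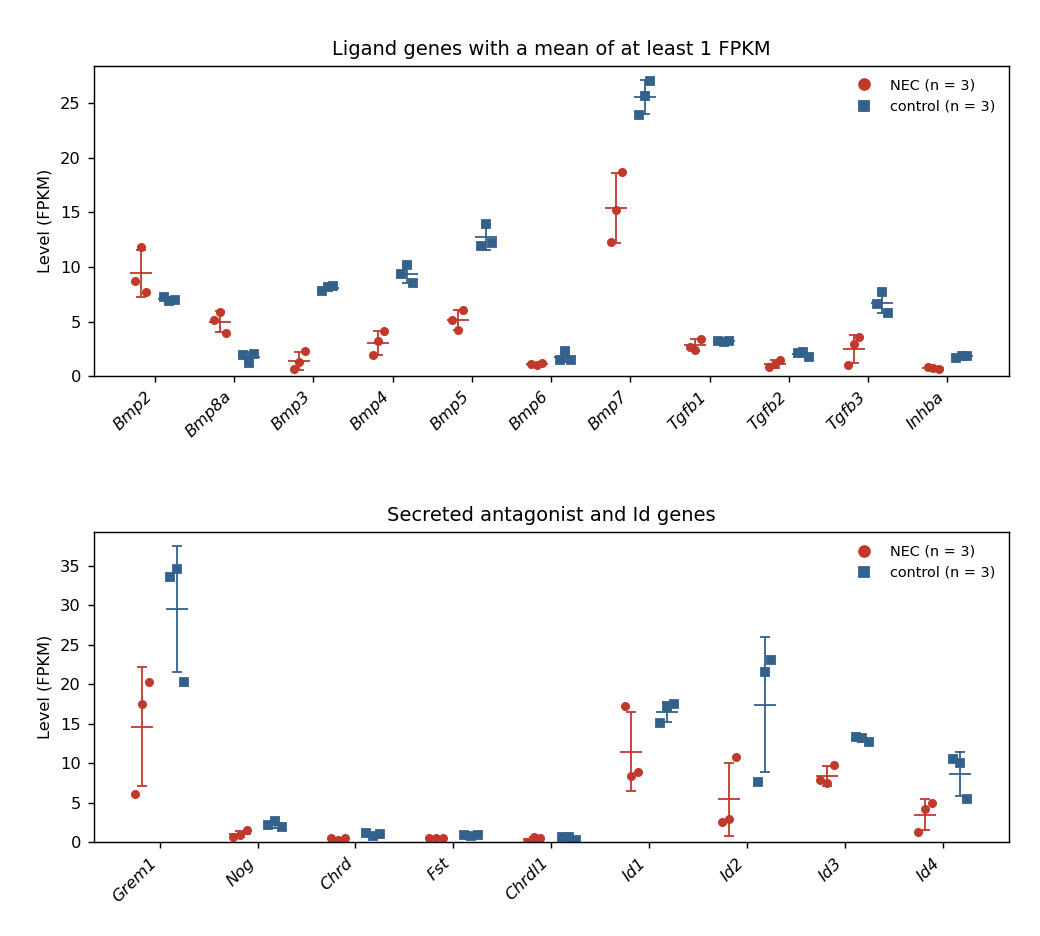
Level in FPKM of the tested ligand genes (top) and of secreted antagonist and Id genes (bottom), with NEC circles left of control squares, 1 point per library, bars for mean and SD (n = 3 each). Bmp2 and Bmp8a are higher in all NEC libraries, Bmp3, Bmp4, Bmp5, Bmp7 and Tgfb3 lower, and Grem1 reaches 20.35 FPKM in NEC 3 as in control 3.

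Secreted antagonist genes also had lower means in NEC. Grem1, the gene of gremlin 1 and the most abundant antagonist of the set, had 6.13, 17.5 and 20.35 FPKM in NEC and 33.5, 34.7 and 20.35 FPKM in control, NEC 3 and control 3 being all but equal. With means of 14.7 ± 7.53 FPKM in NEC and 29.5 ± 7.96 FPKM in control (SD, n = 3 each), the log2 change of -1.07 (SE 0.43) was not called (adjusted p = 0.0897).

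Nog, which encodes noggin, was the only tested antagonist gene called, at 0.697, 0.975 and 1.52 FPKM in NEC and 2.15, 2.67 and 1.93 FPKM in control (log2 change -0.67, SE 0.18, adjusted p = 0.0277). That call was lost with TMM scaling (0.0594), with quantile normalization (0.128) and without NEC 2 or any 1 control (up to 0.0969). Chrd, Chrdl1 and Fst, the genes of chordin, a chordin-like protein and follistatin, lay between 0.0251 and 1.13 FPKM in every library, under the level for testing. Chrd had 0.564, 0.364 and 0.532 FPKM in NEC, against 1.13, 0.863 and 1.06 FPKM in control. In a fit with no filter on level, Chrd was called lower (log2 change -0.44, adjusted p = 0.0389) and Nog was not. Relative to Bmp4, Grem1 stood at 3.17, 5.48 and 4.97 in NEC and at 3.57, 3.41 and 2.40 in control, and these ranges overlapped.

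Of the 6 tested type I receptor genes, Bmpr1a, Acvr1c and Tgfbr1 fell and none rose, against 30.6% and 7.69% of all tested genes. Bmpr1a, the main BMP type I receptor gene of the gut, had 13.1, 20.5 and 19.9 FPKM in NEC, against 30.7, 28.8 and 23.9 FPKM in control (log2 change -0.63, SE 0.19, adjusted p = 0.0393). Acvr1c, which encodes the nodal receptor ALK7, had 2.80, 4.11 and 4.65 FPKM in NEC and 6.73, 6.43 and 6.11 FPKM in control (log2 change -0.63, SE 0.16, adjusted p = 0.0247). Tgfbr1, the TGF-beta type I receptor gene, had 7.19, 9.48 and 8.99 FPKM in NEC and 12.6, 12.4 and 10.9 FPKM in control (log2 change -0.44, SE 0.13, adjusted p = 0.0333).

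None of these 3 calls held with TMM scaling (adjusted p = 0.144, 0.0594 and 0.286 for Bmpr1a, Acvr1c and Tgfbr1), and each was lost without any 1 control (up to 0.123, 0.0863 and 0.115). The Tgfbr1 call was also lost with quantile normalization (0.0538), and those of Bmpr1a and Acvr1c without NEC 2 (0.0525 and 0.0529). The activin receptor gene Acvr1b had 17.4, 25.8 and 27.7 FPKM in NEC and 31.1, 31.3 and 29.2 FPKM in control and did not pass (log2 change -0.38, adjusted p = 0.122). The BMP receptor gene Acvr1 had 2.58, 4.30 and 3.25 FPKM in NEC and 4.58, 3.96 and 3.95 FPKM in control. The endothelial receptor gene Acvrl1 had 2.24, 4.96 and 5.45 FPKM in NEC and 6.75, 6.99 and 4.39 FPKM in control. Neither was called (log2 changes -0.26 and -0.47, adjusted p = 0.237 and 0.231), and the Acvr1 change was 0.01 with TMM scaling and 0.04 with quantile normalization. Bmpr1b stayed at or under 0.227 FPKM.

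Of the 4 type II receptor genes only Acvr2b was called lower and none higher, against 30.6% and 7.69% of all tested genes. Acvr2b, which binds activins and several BMPs (chr9:119402118-119434995), had 1.67, 1.97 and 2.51 FPKM in NEC, against 4.25, 4.39 and 4.23 FPKM in control (log2 change -0.80, SE 0.13, adjusted p = 0.00839). Its relative Acvr2a had 12.8, 17.3 and 15.8 FPKM in NEC and 16.2, 15.4 and 16.2 FPKM in control, with overlapping groups (log2 change -0.06, SE 0.12, adjusted p = 0.711). Tgfbr2 had 21.0, 18.1 and 16.7 FPKM in NEC and 18.3, 18.0 and 16.9 FPKM in control (log2 change 0.06, SE 0.11, adjusted p = 0.683). Bmpr2 had 13.7, 13.1 and 13.0 FPKM in NEC and 15.9, 15.3 and 13.9 FPKM in control (log2 change -0.17, SE 0.09, adjusted p = 0.177). The signs of Acvr2a and Bmpr2 turned with TMM scaling, to 0.26 and 0.16, and neither passed.

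Tgfbr3 encodes betaglycan, a co-receptor that presents TGF-beta 2 and inhibins (chr5:107106570-107289629). It had 4.46, 6.17 and 7.44 FPKM in NEC and 14.0, 15.7 and 11.7 FPKM in control, and fell (log2 change -1.09, SE 0.19, adjusted p = 0.00978). The Acvr2b and Tgfbr3 calls held in each leave-one-out fit, with TMM scaling and with quantile normalization.

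**Figure D3:**
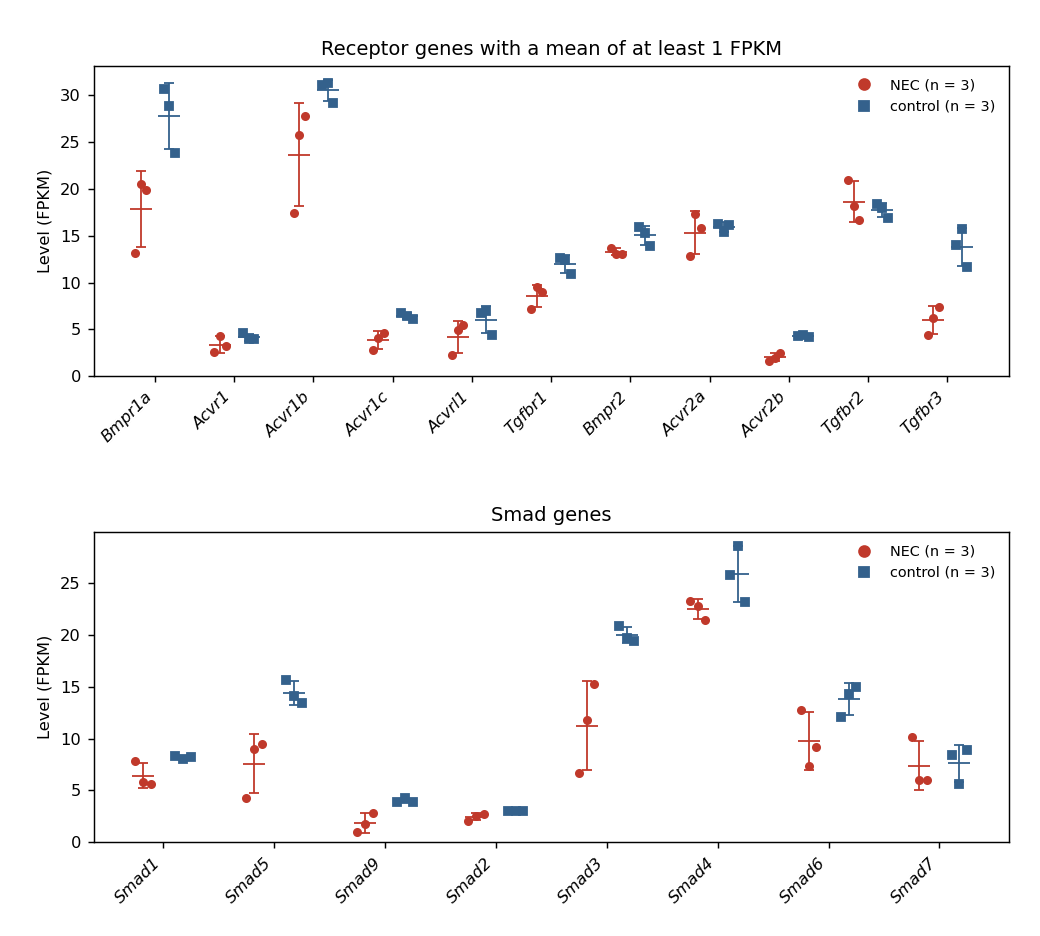
Level in FPKM of the tested receptor genes (top) and of the 8 Smad genes (bottom), NEC circles left of control squares, 1 point per library, bars for mean and SD (n = 3 each). Acvr2b and Tgfbr3 are separated in level between the groups, while Tgfbr2 and Acvr2a overlap, and Smad1, Smad6 and Smad7 are highest of the NEC libraries in NEC 1.

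Of the 6 Smad transducer genes, Smad3, Smad5 and Smad9 fell, and of the 2 inhibitory Smad genes none was called. Over all tested genes 30.6% were called lower and 7.69% higher. With TMM scaling no Smad gene was called, against 14.2% of all tested genes lower and 16.7% higher. Smad5, a signal transducer of the BMP receptors, had 4.29, 8.97 and 9.49 FPKM in NEC and 15.7, 14.1 and 13.4 FPKM in control (log2 change -0.91, SE 0.26, adjusted p = 0.0357). Smad9, also of the BMP branch, had 0.980, 1.82 and 2.86 FPKM in NEC, against 3.91, 4.32 and 3.87 FPKM in control (log2 change -0.86, SE 0.24, adjusted p = 0.0308). Smad3, of the TGF-beta branch, had 6.71, 11.8 and 15.2 FPKM in NEC and 20.8, 19.7 and 19.4 FPKM in control (log2 change -0.84, SE 0.26, adjusted p = 0.0416). NEC 1 was the lowest library in all 3, and no groups overlapped. These calls were lost with TMM scaling (adjusted p = 0.0766, 0.0635 and 0.0957 for Smad5, Smad9 and Smad3), without NEC 2 (0.0525, 0.0726 and 0.0768), and without any 1 control (up to 0.107, 0.0967 and 0.114). The Smad9 call was also lost with quantile normalization (0.0667).

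The other transducers moved less. Smad1 had 7.80, 5.86 and 5.61 FPKM in NEC and 8.30, 7.98 and 8.20 FPKM in control (log2 change -0.32, adjusted p = 0.0938), and it was called lower without NEC 1 (adjusted p = 0.00605). Smad4, the shared partner, had 23.3, 22.8 and 21.4 FPKM in NEC and 25.8, 28.5 and 23.1 FPKM in control (log2 change -0.19, adjusted p = 0.188). Smad2 had 2.09, 2.51 and 2.76 FPKM in NEC and 3.02, 3.00 and 3.03 FPKM in control (log2 change -0.23, adjusted p = 0.147). With TMM scaling Smad4 and Smad2 had positive changes, of 0.14 and 0.03.

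The inhibitory Smads, Smad6 and Smad7, block receptor signalling and are themselves induced by it, and they overlapped between the groups. Smad6 had 12.8, 7.32 and 9.18 FPKM in NEC and 12.1, 14.3 and 15.0 FPKM in control (log2 change -0.49, SE 0.19, adjusted p = 0.0861). Smad7 had 10.1, 5.99 and 6.03 FPKM in NEC and 8.40, 5.59 and 8.90 FPKM in control (log2 change -0.05, SE 0.24, adjusted p = 0.870), turning to 0.25 with TMM scaling. NEC 1 held the highest NEC value of both genes, unlike the Smad3, Smad5 and Smad9 transducer genes, of which it held the lowest. Within NEC 1 the ratio of Smad6 to Smad5 was 2.97, against 0.816 and 0.967 in NEC 2 and 3, and 0.771, 1.01 and 1.12 in control 1, 2 and 3. The ratio of Smad7 to Smad3 was 1.51 in NEC 1, against 0.510 and 0.396 in NEC 2 and 3, and 0.404, 0.284 and 0.459 in control 1, 2 and 3.

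The Id genes encode inhibitors of helix-loop-helix transcription factors. Id3 was called: it had 7.94, 7.47 and 9.82 FPKM in NEC, against 13.3, 13.2 and 12.7 FPKM in control (log2 change -0.59, SE 0.12, adjusted p = 0.0135). The call was lost with TMM scaling (adjusted p = 0.0881) and without control 1 or control 2 (0.0592 and 0.0596). Id1 had 17.3, 8.36 and 8.86 FPKM in NEC and 15.1, 17.1 and 17.5 FPKM in control, so NEC 1 sat among the controls while NEC 2 and 3 lay far below them. With all libraries its log2 change was -0.56 (SE 0.26, adjusted p = 0.125), and without NEC 1 it was called lower (adjusted p = 0.00296). Smad6 was likewise called lower without NEC 1 (adjusted p = 0.0123).

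Id4 and Id2 varied within the control group too. Id4 had 1.32, 4.28 and 4.96 FPKM in NEC and 10.6, 10.1 and 5.50 FPKM in control (log2 change -1.17, SE 0.40, adjusted p = 0.0565). Id2 had 2.57, 3.00 and 10.8 FPKM in NEC and 7.60, 21.6 and 23.1 FPKM in control, and its groups overlapped through NEC 3 and control 1 (log2 change -1.60, SE 0.57, adjusted p = 0.0639). Both passed without NEC 3 (adjusted p = 0.0417 and 0.0188 for Id4 and Id2).

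**Figure D4:**
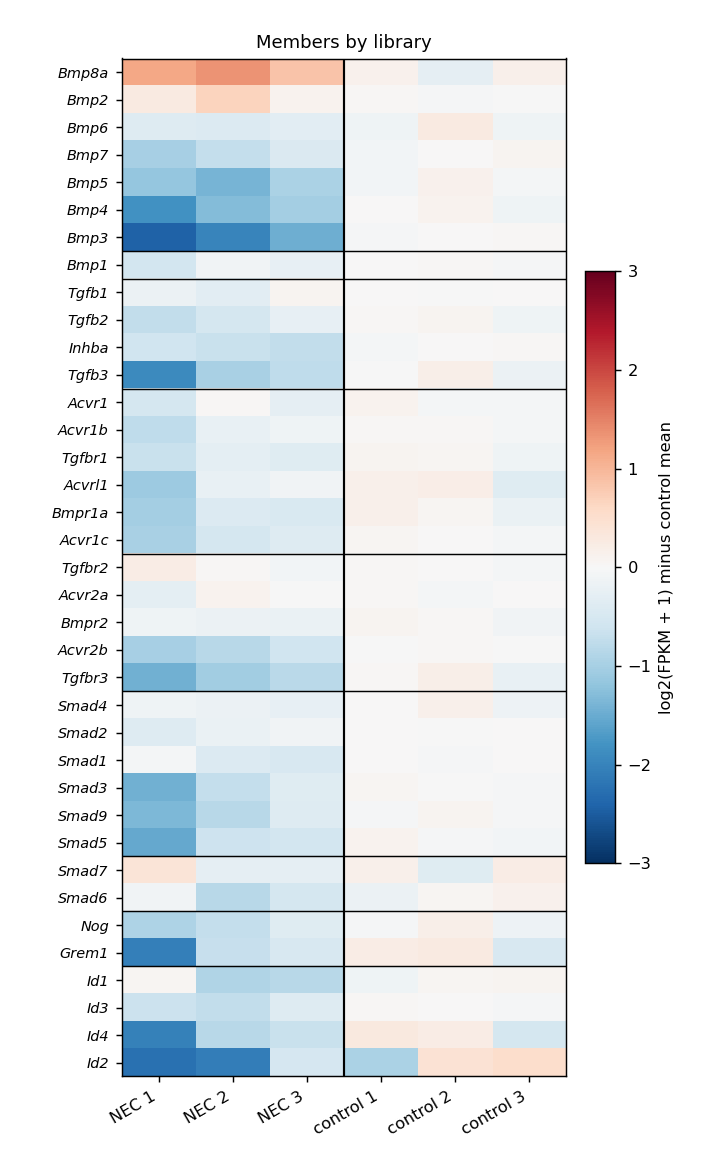
For each tested member reported by name, log2(FPKM + 1) in each library minus the mean of the controls, NEC libraries on the left, members ordered by role. Blue is lower and red higher than the control mean; over all tested members NEC 1 is the lowest NEC library in 24 of 38, and Id1, Smad1, Smad6 and Smad7 are among the 14 where it is not.

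The libraries were not alike within a group. NEC 1 was the lowest NEC library in 24 of the 38 tested members and in 14 of the 17 called lower, and NEC 2 and NEC 3 were lowest in 7 each. Control 3 was the lowest control in 23 of 38. Over all tested genes the median SD of log2 values within the group was 0.21 in NEC and 0.09 in control. Of the summed FPKM, 42.7% in NEC 1 and 27.3% to 32.2% in each other library came from Rn7s1, a gene of 7SL RNA. That sum was itself largest in NEC 1, at 628698, against 394613 to 450361 elsewhere. The part of Rn7s1 in the low values of NEC 1 was not tested. Fewer genes reached 1 FPKM in NEC 1, 2 and 3 (13461, 14541 and 14882) than in control 1, 2 and 3 (16585, 16702 and 16290). With sample weights, NEC 1 had the smallest weight, 0.154, against 0.62 to 2.198 for the rest. Estimated depth, in units of 1e6 fragments, was 16.9 to 18.7 in NEC and 15.2 to 16.2 in control.

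Promoters are shown for genes with a called change (Bmp8a, Bmp5, Bmp4, Id3 and Smad9) and for Smad6, a gene induced by BMP signalling. Each runs from 250 bases before to 50 bases after the start site, 5′ to 3′ along the gene, from RefSeq on GRCm38.p6, the build also called mm10. Capitals mark letters bound by SMAD proteins in published work: the BMP-type motifs GGCGCC and GGAGCC, the palindrome GTCTAGAC, and the shorter CAGAC, each searched on both strands.
Bmp8a, chr4:123343203-123343502, minus strand: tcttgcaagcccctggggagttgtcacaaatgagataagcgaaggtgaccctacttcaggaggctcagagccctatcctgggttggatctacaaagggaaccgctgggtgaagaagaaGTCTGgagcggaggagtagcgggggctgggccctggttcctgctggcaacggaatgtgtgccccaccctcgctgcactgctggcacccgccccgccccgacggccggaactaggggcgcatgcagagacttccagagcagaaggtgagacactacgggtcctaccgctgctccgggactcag
Bmp5, chr9:75775115-75775414, plus strand: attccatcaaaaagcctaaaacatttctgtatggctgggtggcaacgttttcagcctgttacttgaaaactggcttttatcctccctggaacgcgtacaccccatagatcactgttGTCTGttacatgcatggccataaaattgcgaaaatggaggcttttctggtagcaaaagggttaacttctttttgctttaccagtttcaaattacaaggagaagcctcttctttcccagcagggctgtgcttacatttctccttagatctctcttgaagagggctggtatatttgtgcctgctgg
Bmp4, chr14:46390620-46390919, minus strand: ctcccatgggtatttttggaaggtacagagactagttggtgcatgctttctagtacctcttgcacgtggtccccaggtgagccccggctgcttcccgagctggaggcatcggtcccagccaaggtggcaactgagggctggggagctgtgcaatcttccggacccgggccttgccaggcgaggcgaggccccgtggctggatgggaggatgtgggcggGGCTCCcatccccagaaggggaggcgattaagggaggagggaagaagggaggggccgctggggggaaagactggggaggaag
Id3, chr4:136143572-136143871, plus strand: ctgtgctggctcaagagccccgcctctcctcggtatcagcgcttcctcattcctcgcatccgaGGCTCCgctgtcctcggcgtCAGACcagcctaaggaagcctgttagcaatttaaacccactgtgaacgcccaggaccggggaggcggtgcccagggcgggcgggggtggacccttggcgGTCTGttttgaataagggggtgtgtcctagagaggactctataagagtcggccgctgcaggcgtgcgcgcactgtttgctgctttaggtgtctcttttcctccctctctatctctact
Smad9, chr3:54755332-54755631, plus strand: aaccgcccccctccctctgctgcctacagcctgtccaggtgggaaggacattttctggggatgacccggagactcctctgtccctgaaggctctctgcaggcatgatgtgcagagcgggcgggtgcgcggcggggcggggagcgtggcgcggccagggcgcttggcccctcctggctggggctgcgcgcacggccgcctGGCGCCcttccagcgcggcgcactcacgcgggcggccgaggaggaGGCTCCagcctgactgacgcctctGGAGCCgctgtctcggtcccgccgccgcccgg
Smad6, chr9:64022010-64022309, minus strand: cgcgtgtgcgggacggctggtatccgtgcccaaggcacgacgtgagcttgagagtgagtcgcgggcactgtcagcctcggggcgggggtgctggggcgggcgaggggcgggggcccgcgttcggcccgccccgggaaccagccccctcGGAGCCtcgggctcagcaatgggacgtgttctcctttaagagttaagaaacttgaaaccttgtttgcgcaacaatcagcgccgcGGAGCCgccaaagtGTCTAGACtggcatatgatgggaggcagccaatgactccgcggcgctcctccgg
No 2 marked motifs overlapped in these windows. Bmp8a, which rose, and Bmp5, which fell, each held a single CAGAC, and Bmp4 a single GGAGCC. The Id3 window held 1 GGAGCC and 2 CAGAC, that of Smad9 1 GGCGCC and 2 GGAGCC, and that of Smad6 1 GTCTAGAC and 2 GGAGCC.

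The Smad6 window held the palindrome, found in 0.213% of all 32851 promoter windows, and was the only one to do so among the 30 members with an entry in the promoter table. These 30 members have 36 windows, since some genes have more than 1 entry. GGCGCC was found in 30.6% of the members' windows, those of Bmpr1a, Tgfbr1, Grem1, Id2, Id4, Smad5 and Smad9 among them, and in 11.9% of all windows. GGAGCC stood in 52.8% of the members' windows, against 30.8% of all, and CAGAC in 41.7%, against 49.6% of all. Of the 6 printed windows, that of Bmp5 held 43.3% G and C and the others 60.0% to 73.7%. The G and C content of all windows was not measured, and its part in these shares was not tested. A match describes the letters of the window and is not a measured binding site.

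Other genes of both pathways, in 6 lists, were mostly lower as well. Of 49 tested genes 28 (57.1%) were called lower and 1 (2.04%) higher, against 30.6% and 7.69% of all tested genes, and their median log2 change was -0.71. With TMM scaling 40.8% were lower and 6.12% higher, against 14.2% and 16.7% of all. With quantile normalization 42.9% were lower and 4.08% higher, against 15.1% and 13.9% of all. TMM scaling lost the calls of Fstl1, Ltbp1, Ltbp2, Thbs1, Rgma, Wwp1, Hey1 and Postn, and quantile normalization those of Ltbp1, Ltbp2, Lrrc32, Thbs1, Wwp1, Atoh8 and Hey1. Without control 1, 2 and 3 the counts of lower genes were 11, 10 and 15, against 6.98%, 6.35% and 13.0% of all tested genes. Of the 29 calls, 11 held in each leave-one-out fit, and 18 were lost without at least 1 library, at an adjusted p of at most 0.149 (Ltbp2). The 11 were Twsg1, Kcp, Ltbp3, Bambi, Cd109, Ski, Tgif1, Ldlrad4, Atoh8, Tgfbi and Cdkn1a.

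Of 10 tested genes that store or activate TGF-beta, 8 were called lower and none higher, against 30.6% and 7.69% of all tested genes. The 2 not called were the activating integrin genes Itgb6 and Itgav, whose groups overlapped (log2 changes 0.24 and -0.30). Nrros and the integrin gene Itgb8 lay under the level for testing. Itgb8, with a mean of 0.991 FPKM, had 0.243, 0.311 and 0.401 FPKM in NEC and 1.73, 1.74 and 1.52 FPKM in control. In the limma fit with no filter Itgb8 was called lower (log2 change -1.02, adjusted p = 0.00768) and Nrros was not (adjusted p = 0.0523). Ltbp4 and Ltbp3, which encode latent TGF-beta binding proteins, were at 9.19 ± 4.58 and 2.43 ± 0.916 FPKM in NEC and at 26.1 ± 1.32 and 6.72 ± 0.211 FPKM in control (SD, n = 3 each). Their log2 changes were -1.53 and -1.21 (adjusted p = 0.0202 and 0.00982, limma). The fibrillin genes Fbn1 and Fbn2 fell by 1.23 and 1.59, Ltbp1 and Ltbp2 by 0.74 and 0.63, Lrrc32 by 0.71 and Thbs1 by 0.80. Ltbp2 and Thbs1 passed narrowly (adjusted p = 0.0479 and 0.0499), and held in 5 of 16 and 3 of 17 alternatives. With TMM scaling 5 of the 10 were called lower, against 14.2% of all tested genes. Without control 1, 2 and 3 there were 1, 1 and 2, against 6.98%, 6.35% and 13.0% of all genes.

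Of 7 tested secreted modulators 5 fell and none rose, against 30.6% and 7.69% of all tested genes. Without control 1, 2 and 3 the lower calls were 2, 2 and 3, against 6.98%, 6.35% and 13.0% of all genes. Twsg1, a chordin partner, was at 8.80 ± 2.10 FPKM in NEC and 17.9 ± 1.05 FPKM in control (log2 change -0.97, adjusted p = 0.0106), and Fstl1, a follistatin-like protein gene of mesenchyme, at 20.4 ± 9.53 FPKM in NEC and 49.0 ± 5.41 FPKM in control (log2 change -1.35, adjusted p = 0.0298). Kcp, Nbl1 and Fstl4 fell by 0.80, 0.84 and 1.27. Among co-receptors, Bambi, a decoy receptor, fell by 1.05, Cd109 by 1.26, and the repulsive guidance molecule genes Rgma and Rgmb by 1.11 and 0.92. Eng, the endothelial co-receptor endoglin, was level at 4.74 ± 0.472 FPKM in NEC and 4.76 ± 0.0848 FPKM in control, and was called higher with TMM scaling, by 0.28 (adjusted p = 0.0324). Of the other ligands tested, Gdf10 and the inhibin gene Inha fell by 1.19 and 1.07, while Inhbb, an activin subunit gene, stood at 5.62 FPKM in NEC 1 and at 0.841 and 0.756 FPKM in NEC 2 and 3, against 0.572, 0.741 and 0.537 FPKM in control, and did not pass (log2 change 0.78, adjusted p = 0.243).

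Inside the cell, 4 of 16 regulators (25.0%) fell and none rose, a share of lower calls no greater than the 30.6% of all tested genes, and their median of -0.28 was close to the -0.26 of all. The co-repressor genes Ski and Tgif1 fell by 1.13 and 0.77, Ldlrad4, whose product holds back receptor-activated SMADs, by 1.01, and the ubiquitin ligase gene Wwp1 by 0.46. The ligase genes Smurf1 and Smurf2, which mark receptors and Smads for breakdown, did not pass (log2 changes -0.15 and -0.32). Of 8 tested genes reported as SMAD targets 5 fell and 1 rose, against 30.6% and 7.69% of all tested genes. Tgfbi, a matrix gene induced by TGF-beta, had 16.0 ± 4.03 FPKM in NEC and 34.1 ± 2.21 FPKM in control (log2 change -1.08, adjusted p = 0.00994), and Atoh8, Ccn2, Postn and Hey1 fell by 0.80, 0.80, 2.01 and 0.47. The Hey1 change was -0.08 with quantile normalization (adjusted p = 0.514), and its call held in 6 of 16 alternatives. The cell cycle inhibitor gene Cdkn1a rose, at 12.2 ± 1.22 FPKM in NEC and 7.39 ± 0.674 FPKM in control (log2 change 0.65, adjusted p = 0.0103).

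Markers of mesenchyme, and of several other cell types, also had lower values in NEC. Of 10 mesenchyme markers 9 were called lower and none higher, against 30.6% and 7.69% of all tested genes. All NEC libraries lay below all controls in all 10, and in 47.3% of all tested genes. None of these markers was at 0 in any library. Their summed level was 111, 279 and 325 FPKM in NEC and 694, 717 and 584 FPKM in control, a ratio of means of 0.358 that rests mostly on the abundant collagen genes. Over single markers the ratio ran between 0.219 for Dcn and 0.668 for Pdgfrb. Over the 7 tested BMP ligand genes it ran from 0.177 for Bmp3 to 2.85 for Bmp8a, with Bmp7 at 0.602 and Bmp2 at 1.335. With TMM scaling 6 of the 10 markers were called lower, against 14.2% of all tested genes. Without control 1, 2 and 3 the lower calls were 2, 2 and 3, with Foxf1 and Foxl1 called in each. The shares of all genes called lower in these fits were 6.98%, 6.35% and 13.0%. Foxl1, a marker of the BMP-producing cells under the epithelium, was at 0.634, 1.24 and 1.13 FPKM in NEC and 3.38, 2.43 and 3.24 FPKM in control.

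The 4 tested markers of the gremlin-producing crypt fibroblast (Cd81, Wnt2b, Rspo3 and Cd34) were all called lower. All 4 calls were lost without control 2, and 3 of the 4 without control 1 or control 3. Rspo3 held in 5 of 16 alternatives. Ackr4, also on this list, lay under the level for testing. Its groups overlapped, at 0.277, 0.270 and 0.508 FPKM in NEC and 0.742, 0.564 and 0.186 FPKM in control. The counts in this paragraph stand beside 30.6% of all tested genes called lower and 7.69% called higher. Without control 1, 2 and 3 the shares of all genes called lower were 6.98%, 6.35% and 13.0%. Smooth muscle markers summed to 141 FPKM in NEC 1 and to 678 and 671 FPKM in NEC 2 and 3, against 767 to 912 FPKM in control, and none of the 6 was called. The 6 enteric neuron and glia markers summed to 8.66 to 14.7 FPKM in NEC and 23.1 to 29.7 FPKM in control, with 3 of 3 tested lower, and 1 of 3 without control 1 or control 2. Endothelial markers summed to 24.2 to 33.7 FPKM in NEC and 35.8 to 41.1 FPKM in control, with 2 of 6 lower, both calls being lost without control 2. The 5 epithelial markers summed to 964 to 1098 FPKM in NEC and 861 to 941 FPKM in control, with Vil1 called higher and Krt19 lower, and Epcam was between 206 and 251 FPKM in every library. The 8 leukocyte markers summed to 88.9 to 103 FPKM in NEC and 55.6 to 107 FPKM in control, with none of 6 tested called. Control 1 had the lowest sum, with S100a8 at 1.69 and Lyz2 at 24.8 FPKM. All NEC libraries lay above all controls in Itgam, and below them in Ptprc, Cd68 and Cd3e. With TMM scaling Itgam and Csf1r were called higher, against 16.7% of all tested genes. With quantile normalization Itgam was called higher, against 13.9% of all. Of 5 tested red cell markers 4 were lower, and the summed level was 233 to 252 FPKM in NEC and 547 to 813 FPKM in control. Of 6 liver or pancreas markers 4 were at 0 in at least 1 library, and Ttr, the only one tested, was called lower. Ttr had 17.8 to 42.1 FPKM in NEC and 79.3 to 97.3 FPKM in control. Alb was at most at 0.1025 FPKM, and Prss1 and Pnlip were at 0 in every library. No change of liver or pancreas cells can therefore be read from Ttr alone. The part of these cell types in the members' changes was not tested.

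**Figure D5:**
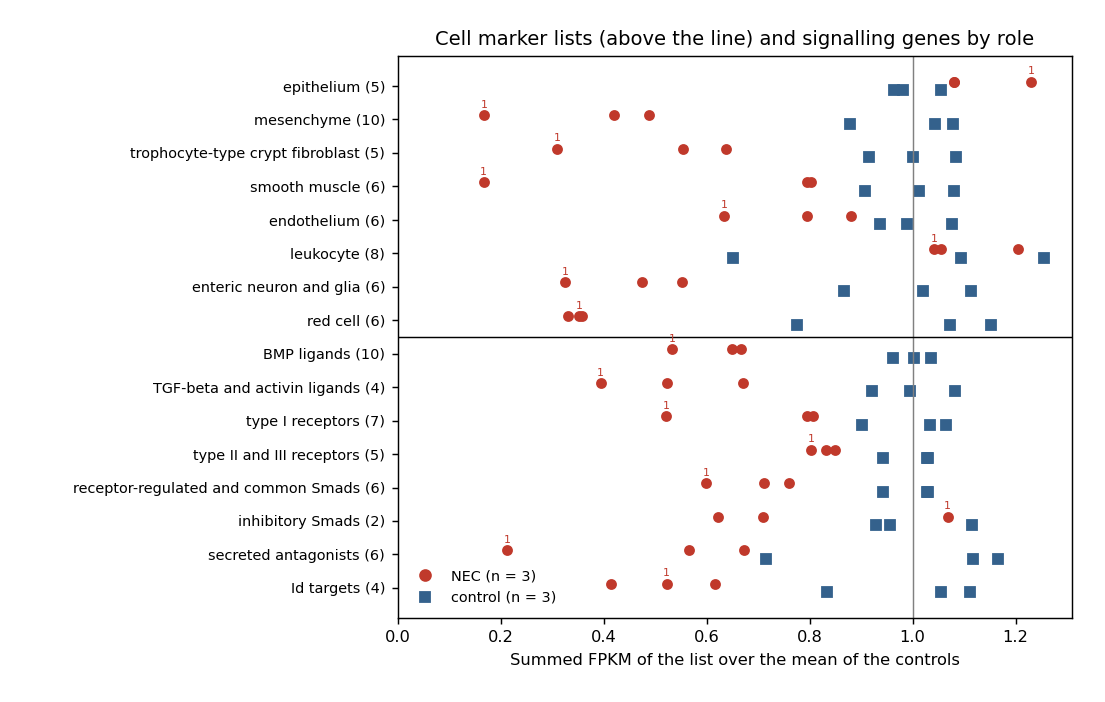
Summed FPKM of each cell marker list (above the line) and of the signalling genes by role (below it) in each library, divided by the mean of the controls, with the number of genes in brackets. NEC circles stand above control squares and NEC 1 is marked. All plotted lists lie left of all controls in the 3 NEC libraries, except the epithelial and leukocyte markers and the inhibitory Smads.

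Some members share exon sequence with a gene on the opposite strand, and the strand setting of the counting is not given in the sources used here. Bmp6 shares 224 bases with Txndc5, which had 6.38 to 12.2 FPKM in NEC and 13.3 to 22.9 FPKM in control, above Bmp6 itself. Acvr2a shares 446 bases with Orc4, Bmp8b 133 with Ppie, and Chrd 239 with Thpo. The antisense gene Gm26903 shares 1878 bases with Bmp5 but stayed at or under 0.057 FPKM. On the same strand, where a strand setting does not help, Tgfbr3 shares 297 bases with Gm43422 and Smad5 100 with Gm27301. Gm43422 had 0.695 to 1.033 FPKM in NEC and 1.745 to 2.631 FPKM in control. The part of shared reads in the changes of Tgfbr3 and Smad5 was not tested.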

How the data were processed

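RNA of the terminal ileum was profiled in 3 NEC and 3 control libraries. Per the submitters' processing notes, the authors used HISAT2, SAMtools 1.3.1 and Cuffdiff with mouse build mm10. The deposited table names no unit. They were taken to be the authors' FPKM, the unit that Cuffdiff writes, and this was not stated in the deposited file. Annotation, strand setting and other versions are not given in the sources used here. N_1 to N_3 in the table were matched to the NEC titles by number. Of 55487 identifiers, 55141 matched GENCODE mouse M21, the source of symbols and coordinates.

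The test was limma 3.58.1 (R 4.3.3) on log2(FPKM + 1), fitted with group as the only term and a trend of variance on level. It took in the 15806 genes whose mean reached 1 FPKM. P-values were adjusted over all of them (Benjamini-Hochberg), and calls had an adjusted p under 0.05. On simulated data with 200 changed genes of 15806, the fit called 61% of the log2 changes of 1 and 90% of those of 2. It made 5 false calls. A member that was not called may therefore still have changed. No exact permutation p was used, since 3 against 3 libraries allow none smaller than 0.1. Depth was estimated from the steps of single-transcript genes, of which 64.3% to 79.1% of values per library came out whole within 0.01 fragments, so whole fragments were not recovered for the table. Intervals on counts are therefore not given. Alternatives were pseudocounts, filters, TMM scaling (computed on FPKM without weights), quantile normalization, scaling to coding genes without the top 100 by level, a fit of coding genes alone, sample weights, a fit with no trend, a replicate block, and leaving out each library. Every called member is given with its values, and of uncalled members the values or range; 1 uncalled member is counted but not reported here by name. Of the other pathway genes, those called with groups that did not overlap are named. The members and lists were chosen with earlier results of these data known. Figures were drawn with matplotlib 3.10.9.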

Additional observations from a re-analysis of the deposited data

How the results depend on the processing

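All alternatives were planned, and changes of calls are given as counts. Over all genes 1215 were higher and 4829 lower; TMM scaling gave 2639 and 2252, quantile normalization 2202 and 2387, and a mean of at least 5 FPKM, with fewer genes tested, 1746 lower. Members called lower numbered 17, but 8 with TMM scaling, 11 with no filter and 10 under the stricter filter of 5 FPKM. Members called higher numbered 2 with TMM scaling, quantile normalization or sample weights and 0 at a mean of at least 5 FPKM, where Bmp8a is not tested. Other pathway genes called higher numbered 2 without a filter, 3 with TMM scaling and 2 with quantile normalization, and those called lower 12 at a mean of at least 5 FPKM. The cause was not tested where none is named. Leaving out a library gave 481 to 1584 genes higher and 1004 to 5302 lower, 1 to 2 members higher and 6 to 20 lower, and 1 other pathway gene higher and 10 to 31 lower.

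Whether same-numbered libraries were paired is not known here. Deviations of same-numbered libraries correlated at -0.051, -0.007 and -0.074, and those of the other pairs at -0.032 to 0.078. With 3 libraries per group these values cannot exclude a pairing. With the replicate block 11 members were called lower and 1 higher.

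Signs that turned belonged to uncalled members. With TMM scaling the log2 changes were 0.01 for Bmp1, 0.12 for Tgfb1, 0.01 for Acvr1, 0.16 for Bmpr2, 0.26 for Acvr2a, 0.03 for Smad2, 0.14 for Smad4 and 0.25 for Smad7. With quantile normalization they were 0.01 for Bmp6, 0.19 for Tgfb1, 0.04 for Acvr1, 0.12 for Smad2 and 0.14 for Smad7. Scaling to protein-coding genes gave 0.02 for Acvr2a and 0.03 for Smad7, and sample weights 0.06 for Acvr2a. Leaving out 1 library gave -0.15 to 0.05 for Acvr2a, -0.03 to 0.13 for Tgfbr2 and -0.28 to 0.06 for Smad7. Members with a mean under 1 FPKM were too low to be tested in the fit reported.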
